A study of Homo sapiens with 30 samples.

Results

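KM12C and HCT-116, 2 established lines of human colorectal carcinoma cells, were set against each other here for how their transcripts changed under elraglusib, also called 9-ING-41. The 12 arrays of these lines, of 30 arrays in the series, were chosen by their cell line labels alone, and no measured value entered the choice. Cells of each line were treated for 24 h with elraglusib, at a recorded dose of 1 µM, or with its vehicle DMSO. For each line and condition 3 arrays were run. The running text of the study describes the array treatments as given at inhibitory concentrations, which may differ between lines. Whether both lines received the same dose is therefore not certain here. The question was which transcripts changed differently in the 2 lines, so the quantity reported is a difference of differences, elraglusib minus DMSO in KM12C minus the same in HCT-116. A positive value means a larger rise, or a smaller fall, in KM12C. The labels call the arrays of a group biological replicates without saying whether the cultures were separate, so the p-values rest on the spread among these arrays, which may be technical. HCT-116 was grown in McCoy's 5A medium and KM12C in Eagle's minimal essential medium, and a single line stands for each response. A property of a line, a property of its medium and any difference in dose therefore cannot be told apart. RNA was isolated in batches of 6 and the arrays were processed in 2 batches of randomized samples, and which array belonged to which batch is not known here.

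Elraglusib blocks glycogen synthase kinase 3 (GSK-3), a kinase with the isoforms GSK3A and GSK3B that tags many proteins for destruction. Its best known substrate is beta-catenin, the transcription factor partner at the end of the WNT pathway, and it also phosphorylates regulators of the cell cycle, of NF-kB signaling and of protein synthesis. HCT-116 carries functional p53, the transcription factor that halts the cycle after damage or mitotic trouble, and is widely used to study p53 targets. The p53 status of KM12C is not given here, and a part of p53 status in any difference was not tested.

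Signals are log2 values of a Human Transcriptome Array, so 1 unit is a doubling, and they were quantile normalized over the 12 arrays. The median of all values was then 4.38 and the upper quartile 6.03. A change or a difference was called at a limma p adjusted over all 67528 probe sets under 0.05, and "rose", "fell" and "differed" without a further remark are used only of called changes and differences. The array reads the RNA of a whole culture, so fewer cells that express a gene and less of its RNA per cell cannot be told apart. Epithelial markers were high in both lines, with EPCAM at 14.09 to 14.23 on the HCT-116 arrays and 15.10 to 15.27 on the KM12C arrays, and KRT8 at 15.32 or more on all 12. The intestinal markers VIL1 and CDH17 stood at 8.47 or more in KM12C but at 4.24 to 4.66 in HCT-116, near the median of all values. None of the 13 epithelial, 16 immune and 8 stromal markers measured had a called difference between responses in limma, and 4, 1 and 0 of them had an unadjusted p under 0.05. Over all 67528 probe sets 9535 had an unadjusted p under 0.05 for the difference. With KM12C DMSO replicate 3, described next, left out, 1 epithelial marker was higher in KM12C, and 3 of the 13 fell there where 0 had with all arrays. KM12C DMSO replicate 3 stood apart from its group, with r of 0.9898 and 0.9905 over all probe sets to the other DMSO arrays and 0.9896 to 0.9913 to the treated arrays, while DMSO replicates 1 and 2 correlated at 0.995. Its median before quantile normalization was 4.47, where DMSO replicates 1 and 2 had 4.23 and 4.26 and the treated KM12C arrays 4.41 to 4.50. Results are therefore also given without it.

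The responses differed for 1426 probe sets, 2.11% of those tested, of which 479 (0.709%) were higher and 947 (1.4%) lower in KM12C. Within KM12C 4713 probe sets, or 6.98%, responded to elraglusib (1951 or 2.89% rose and 2762 or 4.09% fell), and in HCT-116 1914, or 2.83% (926 or 1.37% rose and 988 or 1.46% fell). Most called differences came from a response called in a single line. For 818 the change was called in KM12C and not in HCT-116, for 399 in HCT-116 and not in KM12C, and for 33 in both lines in the same direction at unequal size. Opposite called responses made up 93, with 71 that fell in KM12C and rose in HCT-116 and 22 that did the reverse, and for the remaining 83 neither response was called. Of the 1426, 1043 had a mean signal above the upper quartile in both lines. Without KM12C DMSO replicate 3 the count of called differences was 3148, of which 1391 were shared with the 1426, with 0 changes of sign. Leaving out any other array gave 662 to 1076 calls. Among the 22465 genes with a probe set of a single symbol, 806 differed, 3.59%, with 226 higher (1.01%) and 580 lower (2.58%) in KM12C, and the median difference over all of them was -0.01. Of the 806, 32 had both HCT-116 group means under the median of all values and 28 both KM12C group means, levels at which a fall in that line could hardly be measured. Responses were called for 11.5% of these genes in KM12C and 5.13% in HCT-116.

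**Figure D1:**
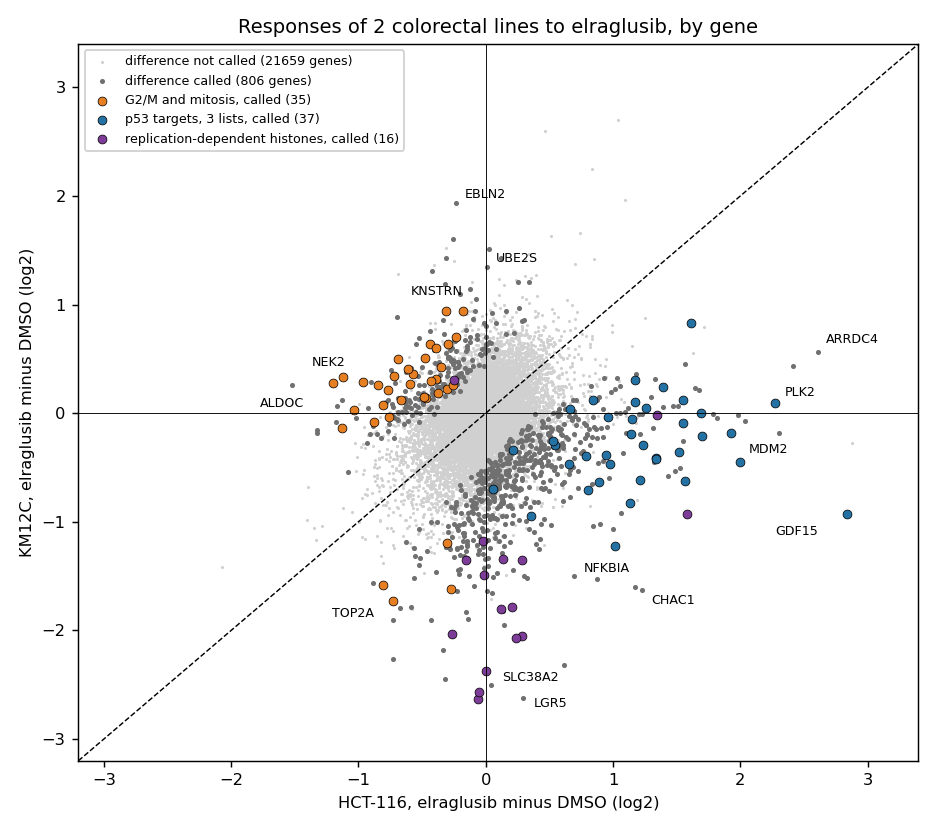
Response to elraglusib (log2, elraglusib minus DMSO, means of 3 arrays each) in HCT-116 on the x axis and in KM12C on the y axis, 1 point per gene, with called differences in dark grey and called members of 3 gene groups in colour; the dashed line marks equal responses. The 37 called p53 targets lie below the line, 31 of the 35 called mitotic genes lie above it, and 15 of the 16 called members of the histone list lie below it.

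**Figure D2:**
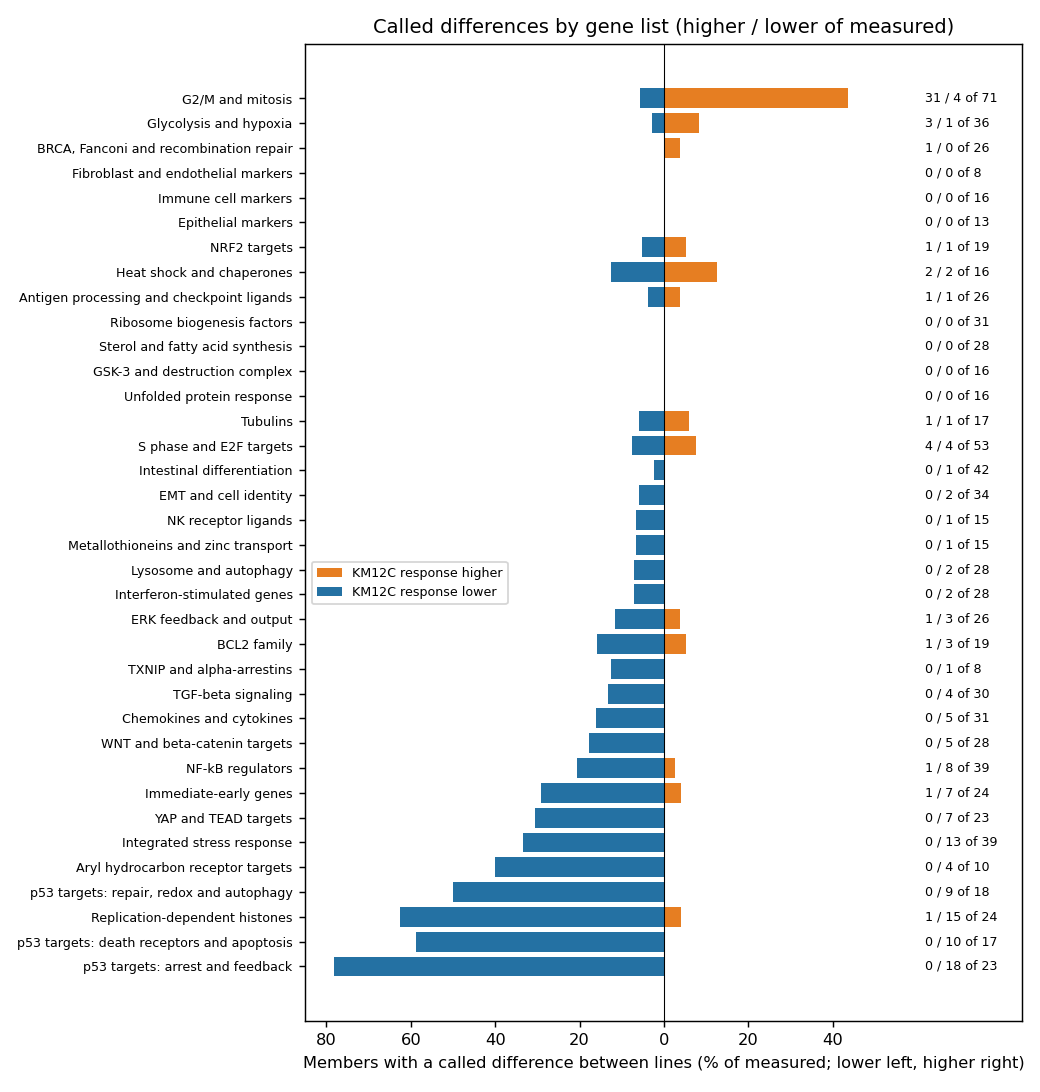
Share of the measured members of each gene list (y axis) with a called difference between responses, in percent (x axis), higher in KM12C to the right and lower to the left, with the counts beside each bar. The list of G2/M and mitotic genes has 31 higher and 4 lower of 71, and the list of p53 targets of arrest and feedback has 0 higher and 18 lower of 23.

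Targets of p53 had lower responses in KM12C. Over 3 lists of such targets, 37 of 58 measured genes were called lower in KM12C and 0 higher, where 2.58% and 1.01% of all genes were. Of these 37, 33 rose in HCT-116, and in KM12C 14 fell, 1 rose and 22 were not called. GDF15, a secreted stress cytokine, had the most negative difference of all genes named here. It gave 11.51, 11.68 and 11.95 on the HCT-116 DMSO arrays and 14.54, 14.67 and 14.46 on the treated ones, a 7.17-fold rise, while in KM12C it went from 11.63, 11.15 and 11.92 to 10.78, 10.88 and 10.27. Treated and DMSO arrays did not overlap in either line, and the difference was -3.77 ± 0.29 (SE, n = 3 arrays per group, limma adjusted p = 0.000146). MDM2, the ligase that degrades p53, stood at 12.95 to 13.01 on the HCT-116 DMSO arrays, rose there to 14.90, 15.01 and 15.04 and fell from 11.69, 11.70 and 11.34 to 11.12, 11.10 and 11.16 in KM12C. This difference was -2.45 ± 0.14 (adjusted p = 1.81e-05), again with no overlap of treated and DMSO arrays within a line.

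The 23 measured targets that act in arrest and feedback had a median difference of -1.30, with 18 lower in KM12C. In HCT-116 16 of the 23 rose, where 2.11% of all genes did, and in KM12C 8 fell, where 7.86% of all genes did. PLK2, a polo-like kinase, stood at 8.05 to 8.07 on the KM12C DMSO arrays and at 8.02, 8.11 and 8.34 on the treated ones, while in HCT-116 it went from 8.49, 8.49 and 8.37 to 10.71, 10.77 and 10.70. CDKN1A, the cyclin-dependent kinase inhibitor p21, rose by 1.55 in HCT-116 and changed by 0.12 in KM12C (not called), a difference of -1.43 ± 0.16. The sestrins SESN1 and SESN2, which restrain the growth kinase complex mTORC1, differed by -1.82 and -1.87, and in KM12C SESN1 fell (by 0.61) and SESN2 was not called. GADD45A, a growth arrest gene, ATF3, a stress-induced transcription factor, and PPM1D, the phosphatase that switches p53 signaling off, rose in HCT-116 by 1.55, 1.39 and 1.70, and none of the 3 was called in KM12C. ZMAT3, an RNA-binding p53 target, combined both directions, with a rise of 1.13 in HCT-116 and a fall of 0.83 in KM12C.

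Among 17 targets with roles in cell death 10 were lower in KM12C, with a median of -0.73. They included the death receptor FAS and 3 receptors of the ligand TRAIL. FAS stood at 7.59, 7.70 and 7.68 with DMSO and at 8.89, 8.81 and 8.99 with elraglusib in HCT-116, against 7.74, 7.68 and 7.70 and then 7.56, 7.30 and 7.37 in KM12C, where the change was not called. The TRAIL receptors TNFRSF10A, TNFRSF10B and TNFRSF10D rose in HCT-116 by 0.66, 1.15 and 1.18 and differed between lines by -1.12, -1.34 and -1.07, and in KM12C TNFRSF10A fell by 0.47 and the other two were not called. TRIAP1, an inhibitor of apoptosis, rose in both lines, by 1.61 in HCT-116 and 0.83 in KM12C, and the call of its difference (-0.78) was kept only without KM12C elraglusib replicate 3 or KM12C DMSO replicate 3 when single arrays were left out. AEN, an apoptosis-linked exonuclease, and PMAIP1, the BH3-only protein NOXA, also rose in both lines, and their differences of -0.45 and -0.53 were not called (95% intervals -0.72 to -0.17 and -0.97 to -0.09).

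Of 18 targets in repair, redox control and autophagy 9 were lower in KM12C, with a median of -0.64. RRM2B, a p53-inducible subunit of ribonucleotide reductase, went from 11.66, 11.90 and 11.80 to 13.22, 13.08 and 13.06 in HCT-116 and from 9.98, 10.01 and 9.97 to 9.68, 9.50 and 9.50 in KM12C. Its treated and DMSO arrays did not overlap in either line. The lysosomal protein DRAM1, the translesion polymerase POLH and the helicase ASCC3 likewise rose in HCT-116, by 1.57, 0.97 and 0.80, and fell in KM12C, by 0.62, 0.47 and 0.71. DDB2, a damage sensor of nucleotide excision repair, rose in HCT-116 from 8.97, 8.99 and 9.15 to 10.23, 10.26 and 10.08 and differed by -1.20 ± 0.16, with KM12C at 7.29, 7.26 and 7.50 with DMSO and 7.53, 7.27 and 7.11 with elraglusib. Its promoter is shown because it was the only 1 of 75 RefSeq start site windows, matched for 49 of the 58 genes, with a full p53 element, 2 decamers of the consensus with 0 to 13 bases between them, which 10 of all 35116 windows held (0.0285%). Windows span 250 bases before to 50 after a start site, and the stretch printed runs from 130 bases before to 30 after it (GRCh38.p14, chr11:47214844-47215003, plus strand), with the decamers in capitals.
DDB2: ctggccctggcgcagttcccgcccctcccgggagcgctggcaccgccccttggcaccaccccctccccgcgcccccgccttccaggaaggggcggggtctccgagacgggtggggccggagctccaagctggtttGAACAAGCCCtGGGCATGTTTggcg
The match lies just after the start site of 1 of the 2 windows of DDB2, and it is a match of letters, with no binding measured here.

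**Figure D3:**
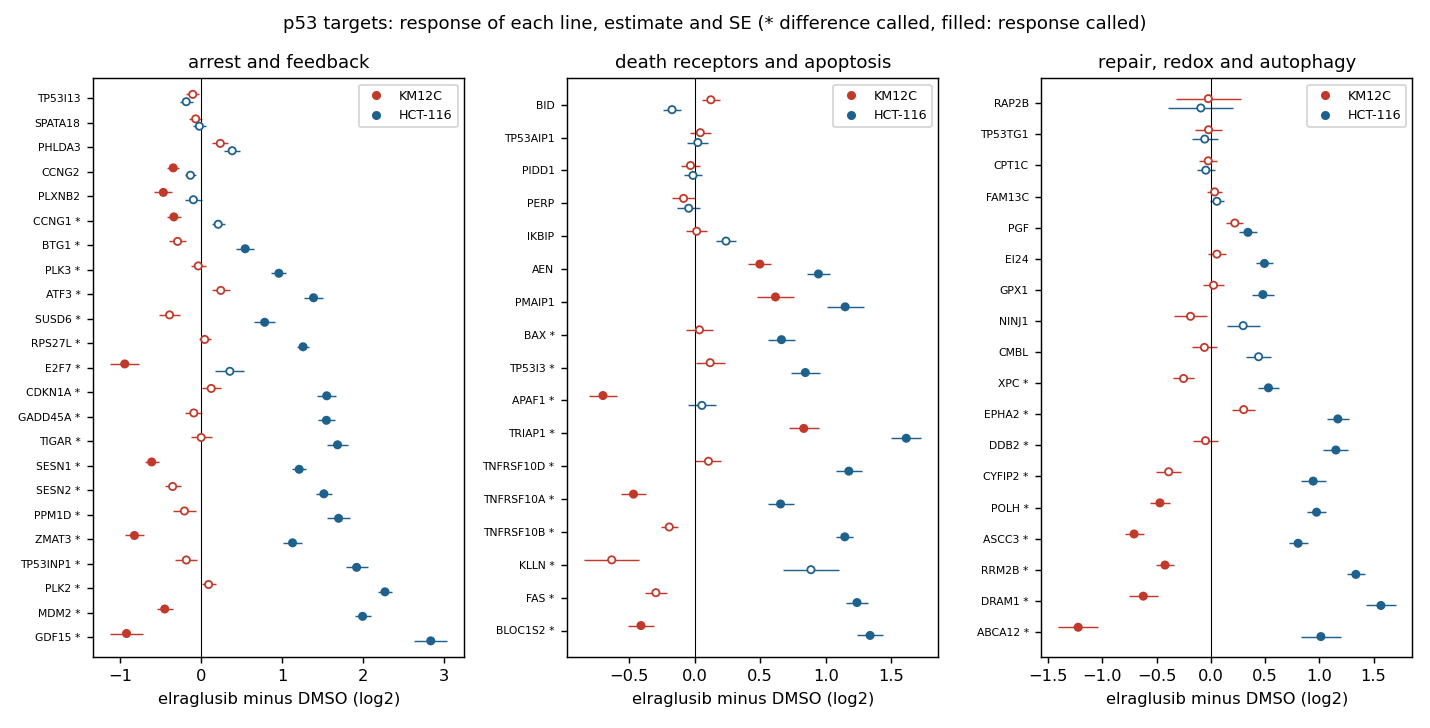
Response to elraglusib (x axis, log2, estimate with SE) of each measured p53 target (y axis) in KM12C in red and HCT-116 in blue, in 3 functional groups; filled points are called responses and asterisks mark called differences. In HCT-116 GDF15 stands at 2.84 and PLK2 at 2.27, while their KM12C points stand at -0.92 and 0.09.

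In a fit over all 30 arrays, whose spread comes from the other lines too, 8 of 23, 3 of 17 and 7 of 18 targets were lower in KM12C. Without KM12C DMSO replicate 3 the 3 lists had 18, 11 and 9 lower members, and without any other single array the death list had 5 to 7. With DMSO, HCT-116 lay above KM12C for MDM2, RRM2B and DDB2, and the part of that starting level in the difference was not tested.

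Outside the p53 lists, opposite responses included regulators of NF-kB and of zinc. NFKBIA, the inhibitor that holds NF-kB in the cytoplasm, had the smallest p among the opposite genes. It stood at 9.68, 9.66 and 9.58 with DMSO and 10.35, 10.36 and 10.30 with elraglusib in HCT-116, and at 10.34, 10.19 and 10.23 with DMSO and 8.73, 8.71 and 8.83 with elraglusib in KM12C. The 4 groups of arrays gave a difference of -2.19 ± 0.10 (adjusted p = 4.78e-06), with a 0.355-fold level after treatment in KM12C and a 1.62-fold level in HCT-116. SLC30A1, the exporter that removes zinc from the cell, rose from 10.11, 10.37 and 10.22 to 11.24, 11.20 and 10.88 in HCT-116 and fell from 11.74, 11.67 and 11.69 to 10.15, 10.25 and 10.12 in KM12C (difference -2.40 ± 0.15). It was the only called member of 15 metallothionein and zinc transport genes, of which 3 had an unadjusted p under 0.05, against 9535 of all 67528 probe sets. Both promoters are shown with their best known kind of control motif in capitals, here on the opposite strand, the kappaB consensus in NFKBIA and the metal response element core, searched as TGCACNC or TGCGCNC, in SLC30A1 (GRCh38.p14, 160 bases each, chr14:35404720-35404879 and chr1:211579132-211579291, both minus strand).
NFKBIA: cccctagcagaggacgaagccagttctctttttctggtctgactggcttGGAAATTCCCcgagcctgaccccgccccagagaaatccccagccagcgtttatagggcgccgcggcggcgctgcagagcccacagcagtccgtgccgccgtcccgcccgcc
SLC30A1: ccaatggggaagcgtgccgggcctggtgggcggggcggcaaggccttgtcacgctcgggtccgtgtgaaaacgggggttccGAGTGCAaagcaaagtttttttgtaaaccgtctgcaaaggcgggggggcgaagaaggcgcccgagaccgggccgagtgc
On both strands 11.3% of all windows held a kappaB match and 29.6% a metal response core, so neither match is rare, and a further core match in SLC30A1 runs over the 3′ end of the printed stretch.

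Over all genes 2.58% were lower and 1.01% higher in KM12C. Of 39 NF-kB regulators 8 were lower and 1 higher, with a median difference of -0.09. Without KM12C DMSO replicate 3, 11 were lower, and without any other single array 4 to 7. TLR3, a sensor of double-stranded RNA, rose in HCT-116 from 6.58, 6.79 and 6.68 to 7.56, 7.46 and 7.56 and fell in KM12C from 8.90, 8.89 and 8.58 to 7.88, 7.94 and 7.42, with no overlap in either line. CYLD, a deubiquitinase that dampens the pathway, and TNFRSF11A, the receptor RANK, fell in KM12C by 0.56 and 1.02 and were not called in HCT-116. Among 31 chemokines and cytokines 5 were lower (8 without KM12C DMSO replicate 3 and 3 to 5 without any other single array). HBEGF, a ligand of the EGF receptor, went from 6.80, 6.96 and 6.84 to 8.08, 7.66 and 8.08 in HCT-116 and from 7.19, 7.24 and 7.17 to 6.97, 6.81 and 6.72 in KM12C, where the change was not called. CXCL8, the neutrophil chemokine interleukin-8, rose in HCT-116 by 0.92 from levels of 4.18 to 4.33, near the median of all values, and differed by -1.14 ± 0.16.

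**Figure D4:**
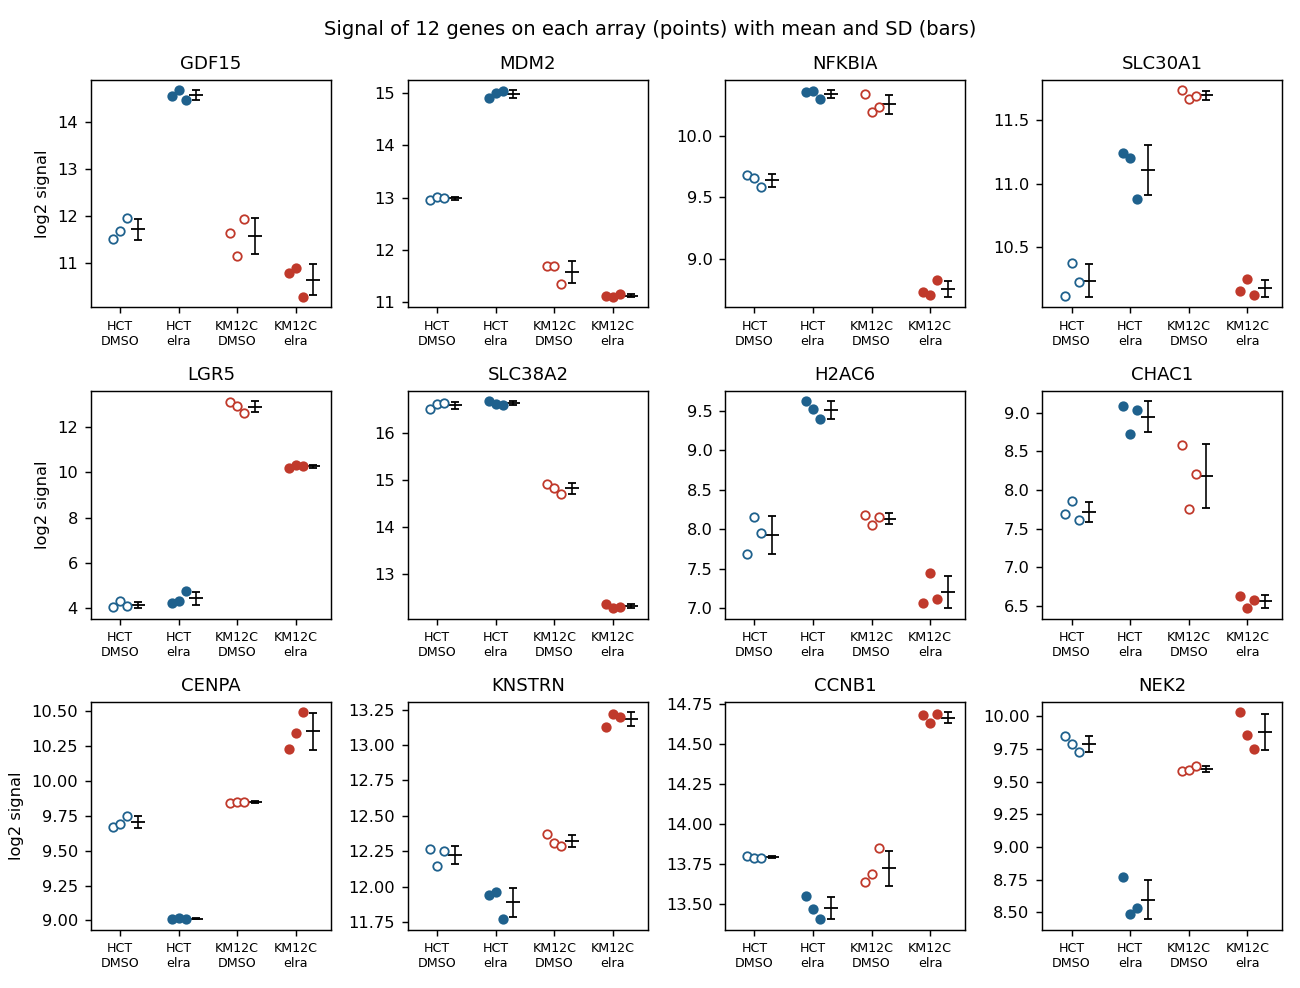
Log2 signal (y axis) of 12 genes on each array, open points for DMSO and filled points for elraglusib ("elra"), HCT-116 in blue and KM12C in red, with the mean and SD of each group beside them; the y axes differ between panels and do not start at 0. The treated arrays of MDM2 lie at 14.90 to 15.04 in HCT-116 and 11.10 to 11.16 in KM12C, and those of CENPA at 9.01 to 9.02 and 10.23 to 10.49.

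Genes of G2 and mitosis differed in the other direction. Of 71 measured, 31 had a higher and 4 a lower response in KM12C, where 1.01% and 2.58% of all genes did. The median difference was 0.53. In HCT-116 48 of the 71 fell and 0 rose, where 3.02% of all genes fell. In KM12C 14 rose and 15 fell, where 3.61% and 7.86% of all genes did. Of the 31, 16 fell in HCT-116 with no called change in KM12C, 8 fell in HCT-116 and rose in KM12C, 5 rose in KM12C alone and 2 had neither response called. On 22 of the 31 the treated arrays lay all below the DMSO arrays in HCT-116 and all above them in KM12C. The choice of the 31 by their called difference favours such a separation, and its share over all genes was not counted. Opposite responses were called for only 8 of them.

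CENPA, the histone variant that marks centromeres, stood at 9.67, 9.69 and 9.75 with DMSO and 9.01, 9.02 and 9.01 with elraglusib in HCT-116, and at 9.84, 9.85 and 9.85 and then 10.23, 10.34 and 10.49 in KM12C. The difference was 1.19 ± 0.11 (adjusted p = 0.000324). Outside the list, KNSTRN, a kinetochore and spindle adaptor, went from 12.27, 12.15 and 12.25 to 11.94, 11.96 and 11.77 in HCT-116 and from 12.37, 12.31 and 12.29 to 13.13, 13.22 and 13.20 in KM12C, a difference of 1.19 ± 0.11. PRC1, which bundles microtubules at the central spindle, CDCA8, a subunit of the chromosomal passenger complex, and TACC3, a spindle microtubule protein, also fell in HCT-116 (by 0.61, 0.39 and 0.40) and rose in KM12C (by 0.40, 0.60 and 0.58). DEPDC1B, a regulator of the entry into mitosis, differed by 0.93 with the same pair of directions, and it and TACC3 were not on the list either.

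Cyclins and mitotic kinases differed through either line. CCNB1, cyclin B1, rose in KM12C from 13.64, 13.69 and 13.85 to 14.68, 14.63 and 14.69, and in HCT-116 stood at 13.79 to 13.80 on the DMSO arrays and at 13.55, 13.47 and 13.41 on the treated ones, a change that was not called. CDC20, an activator of the anaphase-promoting complex, rose in KM12C by 0.94, with a change of -0.18 in HCT-116. AURKA, a kinase of spindle assembly, rose in KM12C by 0.64 and differed by 0.94. CCNA2, cyclin A2, fell in HCT-116 by 0.57 and rose in KM12C by 0.36. NEK2, a centrosomal kinase, showed the other form, with 9.85, 9.79 and 9.73 falling to 8.77, 8.49 and 8.53 in HCT-116 against 9.58, 9.59 and 9.62 and then 10.03, 9.86 and 9.75 in KM12C, not called. AURKB and TTK, kinases of chromosome alignment and of the spindle checkpoint, fell in HCT-116 by 1.03 and 0.85 and changed by 0.03 and 0.26 in KM12C, not called.

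The 4 exceptions fell more in KM12C. UBE2C, the ubiquitin-conjugating partner of the anaphase-promoting complex, went from 10.18, 10.06 and 10.41 to 8.65, 8.81 and 8.33 in KM12C and lay at 9.93 to 9.99 and then 9.67 to 9.71 in HCT-116, a difference of -1.34 ± 0.17. TOP2A, the topoisomerase that untangles chromosomes, fell in both lines, by 1.73 in KM12C and 0.73 in HCT-116, as did the spindle protein NUSAP1, by 1.58 and 0.81. BUB3, of the spindle checkpoint, fell by 1.20 in KM12C. MKI67, which encodes the proliferation antigen Ki-67, and CDC25C, a phosphatase that activates CDK1, showed no called difference: their values were 0.24 (95% interval -0.85 to 1.34) and -0.01 (-0.30 to 0.28).

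Promoters of 4 of the genes with opposite responses are shown with the core of the cell cycle homology region (CHR), TTTGAA on either strand, in capitals, because this motif is known as the site through which MuvB complexes time genes of G2 and mitosis. The coordinates (GRCh38.p14) are chr2:26785926-26786085 on the plus strand for CENPA, chr5:60700137-60700296 on the minus strand for DEPDC1B, chr15:90994506-90994665 on the minus strand for PRC1 and chr1:37692386-37692545 on the plus strand for CDCA8.
CENPA: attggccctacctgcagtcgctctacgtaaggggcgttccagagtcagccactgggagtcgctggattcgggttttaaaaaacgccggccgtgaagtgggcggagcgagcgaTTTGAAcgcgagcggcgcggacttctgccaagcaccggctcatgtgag
DEPDC1B: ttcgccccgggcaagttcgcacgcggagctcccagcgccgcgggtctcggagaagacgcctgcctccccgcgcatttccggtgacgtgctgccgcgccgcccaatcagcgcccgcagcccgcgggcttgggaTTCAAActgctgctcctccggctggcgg
PRC1: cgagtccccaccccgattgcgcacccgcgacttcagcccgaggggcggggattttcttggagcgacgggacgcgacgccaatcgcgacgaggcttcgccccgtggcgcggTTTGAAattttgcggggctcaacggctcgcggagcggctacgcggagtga
CDCA8: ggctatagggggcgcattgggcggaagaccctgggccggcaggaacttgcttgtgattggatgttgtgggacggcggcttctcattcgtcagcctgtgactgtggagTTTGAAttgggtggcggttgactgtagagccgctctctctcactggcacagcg
In CENPA, PRC1 and CDCA8 the match begins 18, 20 and 23 bases before the start site, and in DEPDC1B it lies after the start site and on the other strand. In CDCA8 it shares its last base with a CCAAT match on the other strand. Of 75 windows matched for 61 of the 71 listed genes 48 held TTTGAA (64%), against 15.2% of all 35116 windows, and 54 held CCAAT (72%, against 34.6%). For the genes with a higher response in KM12C it was 17 of 32 windows (53.1%), a lower share than over the list. The windows of KNSTRN and TACC3 held no TTTGAA.

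**Figure D5:**
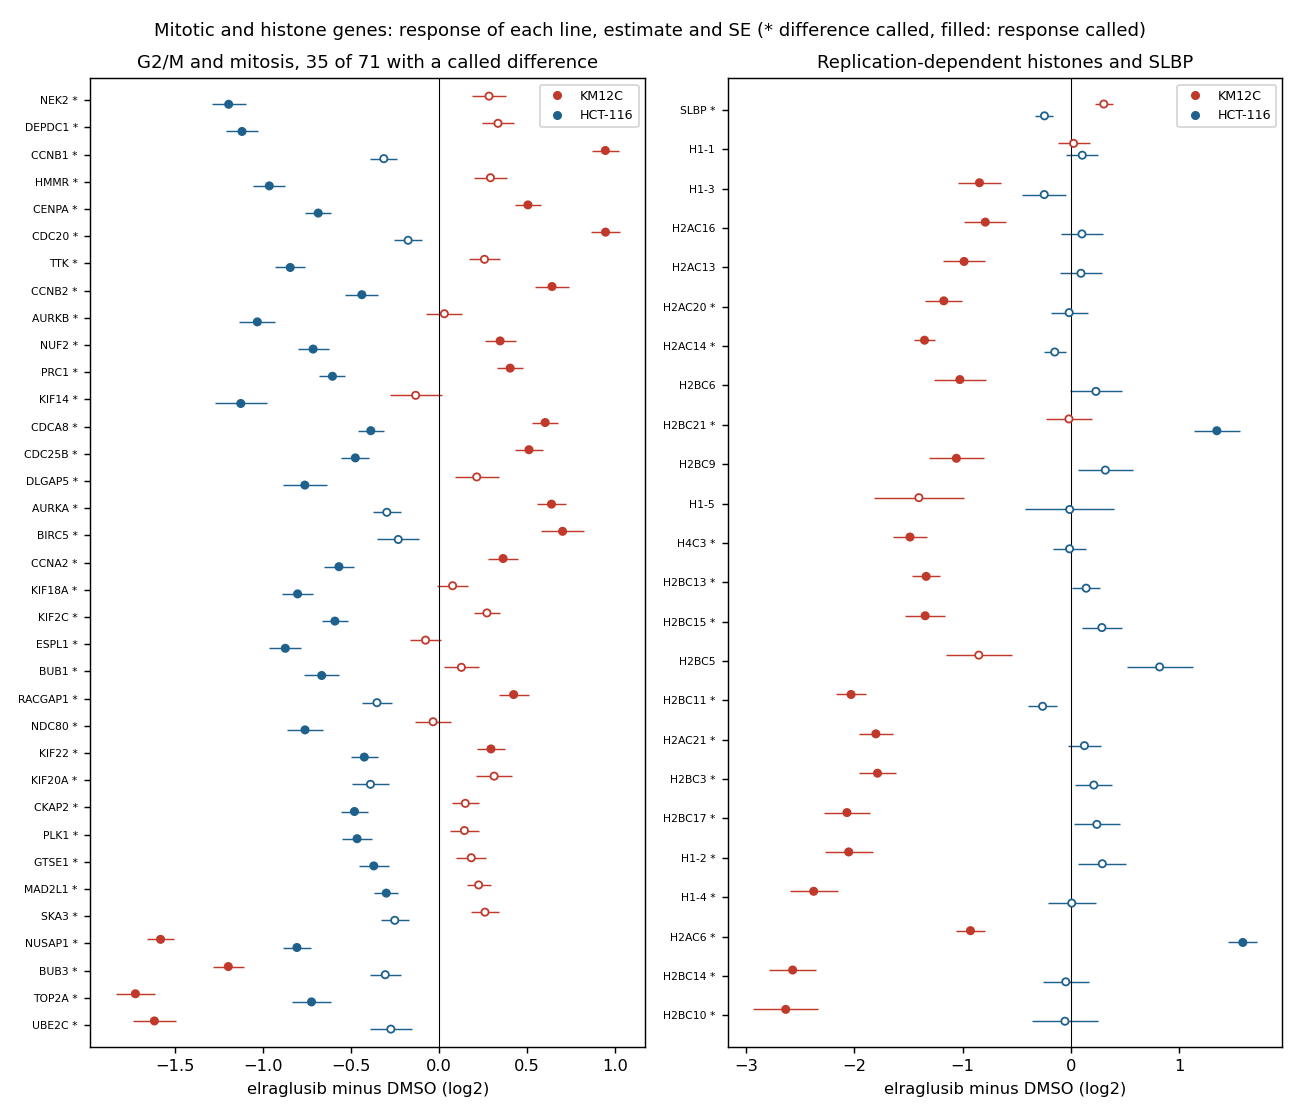
Response to elraglusib (x axis, log2, estimate with SE) in KM12C in red and HCT-116 in blue of the 35 mitotic genes with a called difference (left) and of all 24 members of the histone list (right); filled points are called responses and asterisks mark called differences. Mitotic genes run from NEK2, at -1.20 in HCT-116 and 0.28 in KM12C, to UBE2C, at -0.28 and -1.62, and H2AC6 has its HCT-116 point at 1.58 and its KM12C point at -0.93.

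The mitotic count depended on the setting. It was 19 higher and 4 lower on the values as deposited, 5 and 3 in the fit over 30 arrays, and 33 and 4 without KM12C DMSO replicate 3, where 15 members rose and 22 fell in KM12C. Without any other single array 21 to 30 were higher and 4 lower.

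Replication-dependent histone genes, whose transcripts lack a poly(A) tail in cycling cells, fell in KM12C with few called changes in HCT-116. Of 24 measured genes on the list, 19 fell in KM12C and 0 rose, where 7.86% and 3.61% of all genes did. In HCT-116 2 rose and 0 fell, where 2.11% and 3.02% of all genes did. The difference was lower in KM12C for 15 and higher for 1, where 2.58% and 1.01% of all genes were, with a median of -1.48. The single higher member was SLBP, the protein that binds histone transcripts and no histone itself. Its call (0.55) was kept only without HCT-116 DMSO replicate 2 or KM12C DMSO replicate 3 when single arrays were left out. H2BC14 stood at 13.66, 12.95 and 14.09 with DMSO and 11.04, 11.07 and 10.88 with elraglusib in KM12C, while the HCT-116 arrays gave 13.69, 13.82 and 13.82 and then 13.70, 13.82 and 13.67. All 3 treated KM12C arrays lay below all others, a difference of -2.52 ± 0.30 (adjusted p = 0.00224). The linker histone H1-4 fell in KM12C from 15.35, 14.87 and 15.87 to 12.88, 12.80 and 13.28 and read 16.39 to 16.80 on all HCT-116 arrays. H2AC6 had opposite responses, from 7.68, 8.15 and 7.95 to 9.62, 9.52 and 9.40 in HCT-116 and from 8.18, 8.05 and 8.16 to 7.06, 7.44 and 7.11 in KM12C. KM12C DMSO replicate 3 had the highest KM12C value of H2BC14 and of H1-4. Without it 16 of the 24 fell and 1 rose in KM12C, and the difference was lower for 15 and higher for 1. Without any other single array it was lower for 13 to 15, where 2.58% of all genes were lower. Histone genes are near copies of each other, so a probe set may read several of them, and their individual values are uncertain.

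Genes of the integrated stress response, which cells switch on through ATF4 when amino acids or protein folding fail, were lower in KM12C for 13 of 39 and higher for 0, with a median of -0.45. Over all genes the difference was lower in KM12C for 2.58%. In KM12C 22 of the 39 fell and 0 rose, where 7.86% and 3.61% of all genes did. In HCT-116 5 rose and 4 fell, where 2.11% and 3.02% did. SLC38A2, a transporter of neutral amino acids, gave 14.93, 14.84 and 14.71 with DMSO and 12.37, 12.29 and 12.31 with elraglusib in KM12C, against 16.51 to 16.64 and then 16.61 to 16.68 in HCT-116. The difference of -2.54 ± 0.11 had the smallest p of the list (adjusted p = 3.64e-06). CHAC1, a glutathione-degrading enzyme, had opposite responses, from 7.69, 7.86 and 7.61 to 9.09, 8.72 and 9.04 in HCT-116 and from 8.59, 7.76 and 8.21 to 6.63, 6.47 and 6.58 in KM12C. The synthetic enzymes ASNS (asparagine) and PSAT1 (serine) fell in KM12C by 1.64 and 2.26 and differed by -1.65 and -1.53. CARS1, the cysteine-charging tRNA synthetase, and SLC7A5, a transporter of large amino acids, fell in KM12C by 1.07 and 0.62 and were not called in HCT-116. SESN2, which is also on a p53 list, differed instead through its rise of 1.52 in HCT-116. ATF4 itself differed by 0.19 (95% interval -0.17 to 0.56), not called. Without KM12C DMSO replicate 3 the list had 18 lower members, and without any other single array 8 to 11.

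WNT targets, which beta-catenin drives, differed for 5 of 28, all lower in KM12C, with a median of -0.06. Over all genes 2.58% were lower. The study states that HCT-116 has a mutant beta-catenin allele altered at a GSK-3 site and that KM12C has APC mutations. By its account such mutations cancel the effect of GSK-3 inhibition on beta-catenin. LGR5, a marker of intestinal stem cells, went from 13.11, 12.93 and 12.62 to 10.19, 10.34 and 10.26 in KM12C, a 0.163-fold level, and from 4.05, 4.32 and 4.08 to 4.22, 4.34 and 4.77 in HCT-116, near the median of all values. Since a fall could hardly be measured at that level in HCT-116, its difference of -2.92 ± 0.22 rests on the KM12C response (adjusted p = 1.35e-05). SOX9, a stem and progenitor cell factor, was bright in both lines: KM12C fell from 13.90, 13.52 and 13.23 to 11.14, 11.22 and 10.96, and HCT-116 went from 12.80, 13.08 and 12.91 to 12.55, 12.57 and 12.72, not called. MYC went from 12.18, 11.91 and 12.01 to 11.01, 11.17 and 11.36 in KM12C and stood at 13.04 or less with DMSO and 13.18 to 13.23 with elraglusib in HCT-116, not called (difference -1.03 ± 0.14). SMOC2, a secreted matrix protein, fell by 1.90 in KM12C and lay at 3.74 to 3.91 in HCT-116, under the median of all values, so the same holds for it. AXIN2, the feedback target of beta-catenin, differed by -0.17 (95% interval -0.48 to 0.14) and was called in neither line. None of 16 genes of GSK-3 and its partners had a called difference in limma (without KM12C DMSO replicate 3, 1 was called higher and 1 lower). An unadjusted p under 0.05 was found for 5 of the 16, against 9535 of all 67528 probe sets. GSK3B differed by -0.03 (-0.35 to 0.30), GSK3A by 0.31 (-0.01 to 0.64) and CTNNB1, which encodes beta-catenin, by -0.04 (-0.27 to 0.18), none of them called.

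Immediate-early genes, the rapid responders to growth signals, were lower in KM12C for 7 of 24 and higher for 1. These counts were 8 and 0 without KM12C DMSO replicate 3, and without any other single array 6 to 8 were lower and 0 to 1 higher. Over all genes 2.58% were lower and 1.01% higher in KM12C. The nuclear receptor NR4A2 went from 8.20, 8.48 and 8.27 to 10.55, 10.54 and 10.78 in HCT-116 and lay at 6.61 to 6.74 and 6.33 to 6.72 in KM12C, where the groups overlapped, a difference of -2.49 ± 0.16. EGR1, a zinc finger factor, rose in HCT-116 from 10.47, 10.21 and 10.07 to 11.69, 11.60 and 11.76 and fell in KM12C from 8.49, 8.13 and 8.02 to 7.58, 7.46 and 7.87. JUND, an AP-1 subunit, fell by 1.51 in KM12C. Of 23 targets of YAP and TEAD 7 were lower and 0 higher, with 3 to 8 lower when single arrays were left out (8 without KM12C DMSO replicate 3 and 3 to 6 without any other). CCN2, a matricellular growth factor, had opposite responses, from 4.10, 4.07 and 4.19 to 5.56, 5.21 and 5.11 in HCT-116 and from 6.83, 6.64 and 6.04 to 4.88, 5.11 and 4.72 in KM12C. Its HCT-116 DMSO values lay under the median of all values, so the size of its rise there is uncertain. NT5E, the enzyme CD73 that makes adenosine, rose in HCT-116 by 0.70 and fell in KM12C by 0.33.

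Over all genes 7.86% fell and 3.61% rose in KM12C, and the difference was lower for 2.58% and higher for 1.01%. In KM12C 8 of 30 TGF-beta genes fell, 0 rose and 22 were not called. Their difference was lower for 4 (9 without KM12C DMSO replicate 3 and 3 without any other single array). The receptors TGFBR3, from 10.30, 10.24 and 9.73 to 8.46, 8.47 and 8.42, and TGFBR2, by 0.87, fell in KM12C and differed by -1.41 and -0.78. THBS1, an activator of the ligand, instead rose in HCT-116 by 1.39 and did not change by a called amount in KM12C. Of 26 ERK feedback and output genes 3 were lower and 1 higher (5 and 1 without KM12C DMSO replicate 3). In KM12C 4 of the 26 rose, 8 fell and 14 were not called, with DUSP6, the phosphatase of ERK, and SPRY1, an inhibitor of receptor signaling, falling in KM12C by 1.09 and 1.50 and changing by -0.08 and -0.13 in HCT-116. The aryl hydrocarbon receptor, AHR, a sensor of small aromatic compounds, fell in KM12C by 0.69, and its target CYP1A1 went from 4.48, 4.66 and 4.80 to 7.13, 7.02 and 7.06 in HCT-116 and from 5.27, 5.07 and 4.93 to 5.70, 5.97 and 4.89 in KM12C (difference -1.99 ± 0.31). ARRDC4, an arrestin-like adaptor of glucose uptake, rose in both lines, by 2.61 in HCT-116 and 0.57 in KM12C, a difference of -2.05 ± 0.18.

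The largest positive differences were a mixed group. EBLN2, a gene derived from an ancient viral insertion, gave 5.92, 6.08 and 5.99 with DMSO and 7.93, 8.12 and 7.73 with elraglusib in KM12C against 5.46, 5.92 and 5.99 and then 5.72, 5.37 and 5.58 in HCT-116 (difference 2.17 ± 0.21, adjusted p = 0.000588). ALDOC, a glycolytic aldolase, came from HCT-116, where it fell from 8.19, 8.39 and 8.69 to 7.19, 6.76 and 6.77, with no called change in KM12C. PIMREG and DEPDC1, both genes of mitosis, differed by 1.58 and 1.46. UBE2S, which extends ubiquitin chains with the anaphase-promoting complex, rose in KM12C from 12.28, 11.91 and 12.60 to 13.53, 13.67 and 13.63 and read 12.58 to 12.98 on all HCT-116 arrays. AGAP4 and the pseudogene AGAP7P (1.51 and 1.74) and CDC20P1, a processed copy of CDC20 (1.30), share sequence with other genes, so the transcript behind their signal is uncertain. The small RNA genes MIR4441, MIR5047 and RNA5SP108 differed by 1.85, 1.74 and 1.49 and SNORA80E by -2.94, and these calls were lost without certain single arrays. The call of MIR5047 was lost without HCT-116 elraglusib replicate 3, HCT-116 DMSO replicate 1 or KM12C DMSO replicate 1, and that of RNA5SP108 without HCT-116 elraglusib replicate 2, KM12C elraglusib replicate 1 or 3 or KM12C DMSO replicate 1. For SNORA80E the arrays were HCT-116 elraglusib replicates 2 and 3, HCT-116 DMSO replicate 3, KM12C elraglusib replicates 1 and 3 and KM12C DMSO replicate 1, and for MIR4441 HCT-116 elraglusib replicates 1 and 2, HCT-116 DMSO replicate 3, and replicates 1 and 2 of both KM12C groups. The remaining negative differences of the 12 largest belonged to H2BC10, at -2.58, and to genes described above.

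Some lists with called responses in each line had no called difference. Over all genes 7.86% fell in KM12C and 3.02% in HCT-116, 3.61% and 2.11% rose, and 3.59% differed. At that last share, lists of this size would hold few or no called differences. Of 28 genes of sterol and fatty acid synthesis 10 fell in KM12C and 10 in HCT-116, 7 of them in both lines. Of the 28, 0 differed, with a median difference of 0.12. Without KM12C DMSO replicate 3, 2 were higher and 1 lower, and without KM12C elraglusib replicate 3, 1 was higher. FASN, fatty acid synthase, fell from 12.32, 12.07 and 12.12 to 11.31, 11.29 and 11.35 in HCT-116 and from 10.03, 10.43 and 9.69 to 9.26, 9.49 and 9.43 in KM12C, a difference of 0.20 (95% interval -0.29 to 0.68). Ribosome biogenesis factors rose for 9 of 31 in KM12C and 5 in HCT-116, but only 1 rose in both lines, with 0 differences. Of 16 genes of the unfolded protein response 1 fell in both lines and 0 differed. Among them DNAJC3, a co-chaperone, came nearest at -0.56 (-0.86 to -0.25, limma adjusted p = 0.0723). Over these 3 lists together the unadjusted p was under 0.05 for 21 of 75 genes, against 9535 of all 67528 probe sets. Without KM12C DMSO replicate 3 a difference was called for 1 ribosome biogenesis factor in each direction and for 2 unfolded protein response genes, both lower. Among 44 genes that the study had named from its HCT-116 arrays 7 were higher and 18 lower in KM12C, and among 23 named from its KM12C arrays 0 were higher and 7 lower (13 lower without KM12C DMSO replicate 3), counts that are no independent evidence since those genes were picked on these arrays. LYZ, the secreted lysozyme, showed a difference of -3.15 that was not called (95% interval -6.15 to -0.15, adjusted p = 0.328), with the HCT-116 DMSO arrays at 4.81, 9.20 and 9.71.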

How the data were processed

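Total RNA of each culture was hybridized to Affymetrix Human Transcriptome Array 2.0 arrays by the authors, who deposited a table of log2 signals at gene level for 67528 probe sets and 30 arrays, of which 12 were used here. The study's methods name the Transcriptomic Analysis Console for the arrays, with version and normalization setting not given in the sources used here, so values were taken as deposited. The log2 values were quantile normalized over the 12 arrays and fitted with limma 3.58.1 in R 4.3.3 as 4 group means, without a block. The contrast (elraglusib minus DMSO in KM12C) minus (elraglusib minus DMSO in HCT-116) and both responses were tested 2-sided, with Benjamini-Hochberg adjustment over all probe sets and calls at an adjusted p under 0.05. A probe set with a single symbol in the platform annotation names its gene (23781 probe sets, 22465 genes, the brightest standing for the gene), while 1543 probe sets had several symbols and 42204 none and are unnamed here. Errors are SE of the fit, and intervals are at 95%. The number of arrays limits the precision.

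The text names the 12 largest differences in each direction among called genes whose treated and DMSO arrays separate in a line where the gene is above the median, the 6 smallest p of each direction among genes with opposite responses, the 5 smallest p of each list it describes and genes the study named. Other named genes (among them ZMAT3, PPM1D, DDB2, TRIAP1, CCNA2, AURKA, UBE2C, TOP2A, NUSAP1, BUB3, SLBP, H1-4, ASNS, SLC7A5, and genes given as not different) were chosen after their values were seen. The comparison, the lists and these choices were made with earlier results of these data known. Promoter windows are those of RefSeq on GRCh38.p14. Alternatives were the values as deposited, other array sets, a filter on dim probe sets, other variance settings, replicate blocks, 1 probe set per gene, the study's thresholds, each array left out in turn and, chosen after seeing the data, the array median as a covariate. The scripts were tested on simulated data.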

Additional observations from a re-analysis of the deposited data

Results flagged for a closer look

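The test of the difference between lines itself passed for 1426 probe sets, and 93 of them had called responses of opposite sign. Among the genes with the smallest p, the KM12C response minus the HCT-116 response was 1.19 for CENPA, 1.19 for KNSTRN, 0.98 for TACC3, 0.93 for DEPDC1B, 1.01 for PRC1 and 0.99 for CDCA8, each of which rose in KM12C and fell in HCT-116. It was -2.19 for NFKBIA, -2.45 for MDM2, -2.40 for SLC30A1, -1.82 for SESN1, -1.76 for RRM2B and -2.52 for H2AC6, each of which fell in KM12C and rose in HCT-116. All 12 were picked as called by limma for the difference and in both lines, so passing that test is no further support. In each the 3 treated arrays did not overlap the 3 DMSO arrays in either line, which the same choice favours. They lay on opposite sides of the DMSO arrays in KM12C and in HCT-116.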

How the results depend on the processing

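The count of 1426 differences was 906 on the values as deposited, 720 in the fit over 30 arrays, 2476 with array weights and 3878 at the study's thresholds, and 662 to 3148 when single arrays were left out, with 3148 without KM12C DMSO replicate 3 and 662 to 1076 without any other. The 4713 KM12C responses became 2605 over 30 arrays, 7078 with array weights, 2010 with the array median as a covariate, and 2179 to 8120 with single arrays left out (2179 without DMSO replicate 1, 2612 without DMSO replicate 2, 2508 without elraglusib replicate 3 and 8120 without DMSO replicate 3). The 1914 HCT-116 responses became 1135 as deposited and 918 over 30 arrays, and 781 to 2540 with single arrays left out. The 93 opposite responses became 44 as deposited, 25 over 30 arrays, 141 without dim probe sets, 157 with array weights, 154 with 1 probe set per gene and 58 with the array median as a covariate, and 35 to 175 with single arrays left out. The cause of these shifts was not tested, beyond the smaller number of arrays or probe sets that some settings use by construction. Quantile normalization moved the balance of directions in HCT-116: 69.7% of called responses were rises on the values as deposited and 48.4% after it. Of the called differences between lines 24.4% were higher in KM12C as deposited and 33.6% after it. The median difference between lines over all probe sets was 0.09 as deposited and 0.0095 after it. As deposited, the median response was 0.11 in KM12C and 0.0167 in HCT-116. Replicate numbers did not pair the arrays (correlations of same-numbered deviations -0.47 to -0.16 in HCT-116 and -0.07 to 0.10 in KM12C). With a replicate block within line the counts were 448 differences, 657 HCT-116 responses and 20 opposite responses, and with a block across lines 955 differences and 57 opposite responses. For the 33 genes named first, 719 values under 23 alternatives kept direction and call, 40 kept direction only and 0 reversed. These genes were picked for the largest differences or smallest p in the main fit. The alternatives use all or most of the same arrays, so both points favour kept calls, and these counts are no independent support. KNSTRN, DEPDC1B, PRC1, CDCA8, NFKBIA, SESN1 and ALDOC lost their call in the fit over 30 arrays.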

Other observations

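Some further genes differed between the lines, against 1.01% higher and 2.58% lower in KM12C over all 22465 genes. Of 53 genes of S phase and E2F control 4 were higher and 4 lower in KM12C (6 and 4 without KM12C DMSO replicate 3, and 1 to 2 in each direction without any other single array). CCNE2, cyclin E2, fell in KM12C from 9.13, 9.27 and 9.06 to 7.78, 7.76 and 7.42 and lay at 9.61 to 9.71 and then 9.90 to 9.97 in HCT-116, a difference of -1.80 ± 0.14 (limma adjusted p = 0.000177). E2F2, an activator of S phase genes, rose in KM12C by 0.38 and fell in HCT-116 by 0.44. Among 36 genes of glycolysis and hypoxia 3 were higher and 1 lower. The enolase ENO2 went from 8.74, 8.70 and 8.90 to 8.03, 8.07 and 8.01 in HCT-116 and from 7.89, 7.72 and 7.93 to 8.19, 8.09 and 8.47 in KM12C, with no overlap in either line, while VEGFA, the angiogenic growth factor, fell in KM12C by 1.09 and was not called in HCT-116.

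Stress and quality control genes were mixed. HMOX1, heme oxygenase, rose in HCT-116 from 6.47, 6.50 and 6.48 to 7.31, 7.42 and 7.31 and stood at 5.66 to 5.73 and 5.51 to 5.61 in KM12C, a difference of -1.01 ± 0.10. MAP1LC3B, an autophagosome protein, rose by 0.69 in HCT-116 and differed by -0.89. Of 19 targets of the stress factor NRF2 1 was higher and 1 lower in KM12C, and of 28 lysosome and autophagy genes 0 and 2. Of 16 heat shock and chaperone genes 2 were higher and 2 lower (1 to 3 and 1 to 2 with single arrays left out), with the HSP40 protein DNAJA1 rising in KM12C by 0.83 and the HSP110 protein HSPA4L rising in HCT-116 by 0.61, each without a called change in the other line. BCL2L11, the BH3-only killer BIM, fell in KM12C by 0.43 and differed by -0.73, and of 19 BCL2 family genes 1 was higher and 3 lower (1 to 3 lower with single arrays left out). NRP1, a co-receptor of semaphorins, and ERAP2, a peptide trimmer for antigen presentation, fell in KM12C by 1.03 and 0.87 from levels of 9.30 to 10.13 and 10.18 to 10.43, and differed by -1.55 and -1.07. Of 34 genes of epithelial-mesenchymal transition and cell identity 0 were higher and 2 lower in KM12C. Among 26 antigen processing and checkpoint ligand genes 1 was higher and 1 lower.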
